A study of Homo sapiens with 4 samples.

Results

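YAP and TAZ, their TEAD partners and a set of genes they are known to switch on were examined in U87, a human glioma cell line in long use. The 10 genes were YAP1, WWTR1, TEAD1, TEAD4, LATS2, AMOTL1, AMOTL2, ANKRD1, CTGF and CYR61, taken by symbol from the 57820 gene rows of the deposited table, and no symbol occurred in more than 1 row. They were chosen by their fold changes between these same libraries, above all the loss of ANKRD1, and by their known place in the pathway, so their values are given as a description and without a p-value. The shGlud1 cells carried a knockdown of GLUD1, the gene of mitochondrial glutamate dehydrogenase, and the shNT cells were the control. Each group had 2 libraries, and the cells of both groups had spent 6 h in low glucose medium (DMEM with 10% bovine calf serum). The labels name no hairpin sequence and no number of hairpins or clones, and they leave unsaid whether the libraries of 1 group are separate cultures. The p-values below therefore reflect the spread among 4 libraries, and that spread may be technical.

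YAP, encoded by YAP1, and TAZ, encoded by WWTR1, are paralogous coactivators that do not bind DNA on their own and reach their target genes through the TEAD transcription factors. In the Hippo pathway the LATS kinases phosphorylate YAP and TAZ, which are then held in the cytoplasm or degraded, and the motin proteins bind YAP at junctions and actin filaments. Several targets, LATS2 and AMOTL2 among them, feed back on the pathway. Energy stress is known to restrain YAP in other cell lines, and YAP and TAZ are studied in glioma for growth and invasion.

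Total expected counts per library were 17407149 and 18537314 in shGlud1 and 16546849 and 18118503 in shNT. Levels are CPM, counts scaled to a common library size with TMM factors, which align the bulk of genes between libraries. Fold changes are log2 values of shGlud1 over shNT, each with a standard error (SE). GLUD1 was at 33.9 and 44.5 CPM in shGlud1 and at 78.0 and 76.4 CPM in shNT, a log2 fold change of -0.98. Scaled by total counts alone GLUD1 was at 39.1 and 55.3 CPM in shGlud1 and at 64.4 and 64.6 CPM in shNT. The log2 fold change was then -0.45, so the size of the knockdown depends on the scaling. Of 8 glioma and glial markers 4 could be tested. VIM stood at 4430 and 4910 CPM in shGlud1 and at 2420 and 2280 CPM in shNT. NES was also higher, at 29.8 and 28.4 CPM in shGlud1 and 8.05 and 7.18 CPM in shNT. In contrast CD44 (743 and 793 CPM in shGlud1, 723 and 725 in shNT) and CHI3L1 (5.94 and 5.98 in shGlud1, 6.07 and 6.20 in shNT) were close between the groups. Of the others, SOX2 had 0 counts in every library, and S100B had 2 counts in 1 shNT library and 0 elsewhere. GFAP had 4 and 4 counts in shGlud1 and 2 and 6 in shNT, and OLIG2 6 and 3 in shGlud1 and 1 and 1 in shNT. Summed CPM of 5 macrophage and microglia markers was 6.34 and 8.24 in shGlud1 and 11.7 and 10.8 in shNT, most of it from CSF1R, with CD14 at 1 and 12 counts in shGlud1 and 39 and 42 in shNT and AIF1 at 0 in every library. Summed CPM of 5 muscle markers was 3.05 and 3.25 in shGlud1 and 2.05 and 2.22 in shNT, most of it from DES, with MYH7 and TNNT2 at 0 in every library. Summed CPM of 5 epithelial markers was 23.8 and 19.2 in shGlud1 and 38.5 and 36.5 in shNT, most of it from KRT8. For 3 endothelial markers it was 1.75 and 0.997 in shGlud1 and 1.02 and 0.848 in shNT. The part of these markers in the results was not tested. Counts are of bulk RNA, so fewer cells that express a gene and less of its RNA per cell cannot be told apart.

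All 10 genes had enough counts to be tested. Their levels did not overlap between the groups for any of the 10, with 8 higher and 2 lower in shGlud1, against 42.8% of all genes without overlap and higher and 38.3% without overlap and lower. In edgeR's test over all 14616 genes, 31.9% were called as higher and 29.1% as lower, and the same 8 and 2 were called. Since the genes were gathered with this comparison known, nothing is read from those counts. At least 2-fold differences were found for 5 genes upward, against 15.6% of all genes, and for 1 downward, against 13.4%. Their median log2 fold change was 1.00, beside 0.056 over all genes tested.

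**Figure D1:**
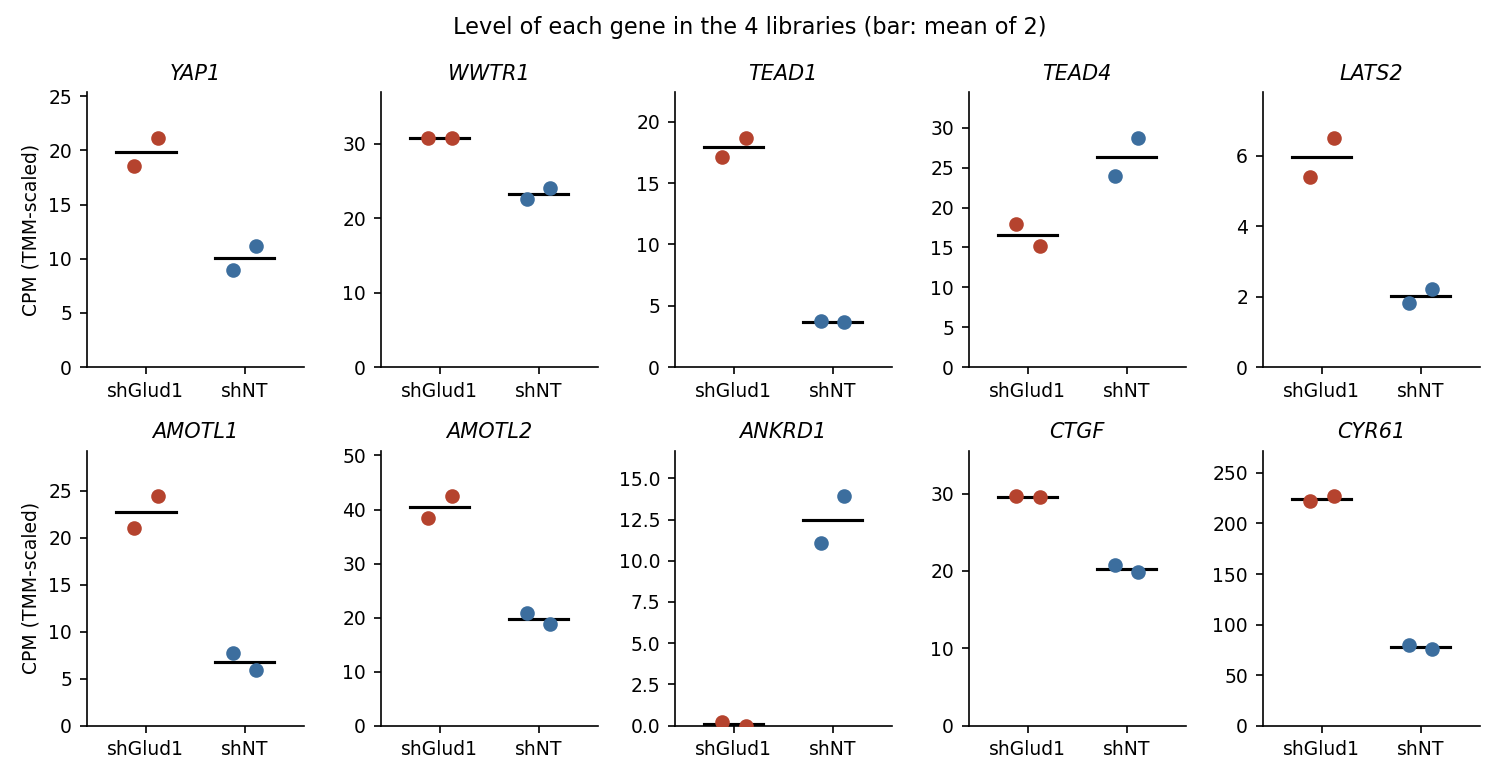
TMM-scaled CPM of the 10 genes, 1 panel a gene with its own axis from 0, for the 2 shGlud1 libraries (left in each panel) and the 2 shNT libraries (right). Points are libraries and bars are group means. TEAD4 and ANKRD1 lie lower in shGlud1 and the other 8 genes higher, with no overlap.

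Both coactivator genes were higher in shGlud1, YAP1 by more than WWTR1. YAP1 (ENSG00000137693, GRCh38 chromosome 11, 102110461 to 102233423) was at 18.6 and 21.2 CPM in the shGlud1 libraries and at 9.001 and 11.2 CPM in the shNT libraries. Both shGlud1 values thus lay well above both shNT values, at a log2 fold change of 0.98 (SE 0.18). WWTR1 (ENSG00000018408, chromosome 3, 149517235 to 149736714) was at 30.80 and 30.8 CPM in shGlud1 and at 22.6 and 24.0 CPM in shNT, a log2 fold change of 0.40 (SE 0.15). The 2 shGlud1 values of WWTR1 were nearly the same, and the gap to shNT was the smallest among the 10 genes. Reads of WWTR1 and of WWTR1-AS1, which share 795 exon bases on opposite strands, cannot be told apart without strand, but WWTR1-AS1 had only 8.27 and 10 expected counts in shGlud1 and 9.04 and 8 in shNT. Levels of different genes were set side by side per kilobase of the longest transcript, a scale that depends on the transcript length chosen. On it WWTR1 was the more abundant of the pair, with 6.12 ± 0.0025 CPM per kb in shGlud1 and 4.64 ± 0.20 in shNT (SD, n = 2 each). YAP1 was at 3.68 ± 0.34 CPM per kb in shGlud1 and at 1.87 ± 0.28 in shNT. YAP1 accordingly made up 35.97% and 39.0% of the summed level of the pair in shGlud1, against 27.1% and 30.2% in shNT. With median transcript lengths its mean share was 20.4% in shGlud1 and 14.6% in shNT.

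Among the DNA-binding partners, TEAD1 was higher and TEAD4 lower in shGlud1. TEAD1 (ENSG00000187079, chromosome 11, 12674591 to 12944483), one of the 4 human TEAD genes, was at 17.1 and 18.7 CPM in shGlud1 and at 3.73 and 3.66 CPM in shNT. This was the largest upward fold difference of the 10 genes, 4.84-fold, with a log2 fold change of 2.28 (SE 0.22) that exceeded that of 98.9% of all genes tested. TEAD4 (ENSG00000197905, chromosome 12, 2959330 to 3040673) was at 17.9 and 15.2 CPM in shGlud1 and at 23.9 and 28.7 CPM in shNT. The shGlud1 values of TEAD4 lay below both shNT values, at a log2 fold change of -0.67 (SE 0.16), but the 2 shNT libraries also stood apart from each other. Scaled by total counts alone the TEAD4 groups overlapped, with 20.6 and 18.9 CPM in shGlud1 and 19.8 and 24.3 CPM in shNT.

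Seen as a family, the TEAD genes kept TEAD4 as the most abundant in every library, but its lead narrowed in shGlud1. TEAD2 and TEAD3 rose in edgeR's test, TEAD2 by 1.08 (SE 0.21, adjusted p = 2.02e-06) and TEAD3 by 0.87 (SE 0.22, adjusted p = 0.000206). Per kilobase of longest transcript TEAD4 made up 49.7% and 46.6% of the summed TEAD level in shGlud1, against 76.5% and 77.4% in shNT. TEAD1 made up 9.46% and 11.4% in shGlud1, against 2.38% and 1.96% in shNT. TEAD2 held 23.7% and 25.1% in shGlud1 and 11.7% and 11.4% in shNT. With the median in place of the longest transcript length the mean share of TEAD4 was 56.6% in shGlud1 and 84.5% in shNT. The summed TEAD level itself overlapped between the groups under TMM scaling, with 21.3 and 19.3 CPM per kb in shGlud1 and 18.5 and 21.96 in shNT. Under total counts it did not overlap, with 24.6 and 24.0 in shGlud1 and 15.3 and 18.6 in shNT.

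**Figure D2:**
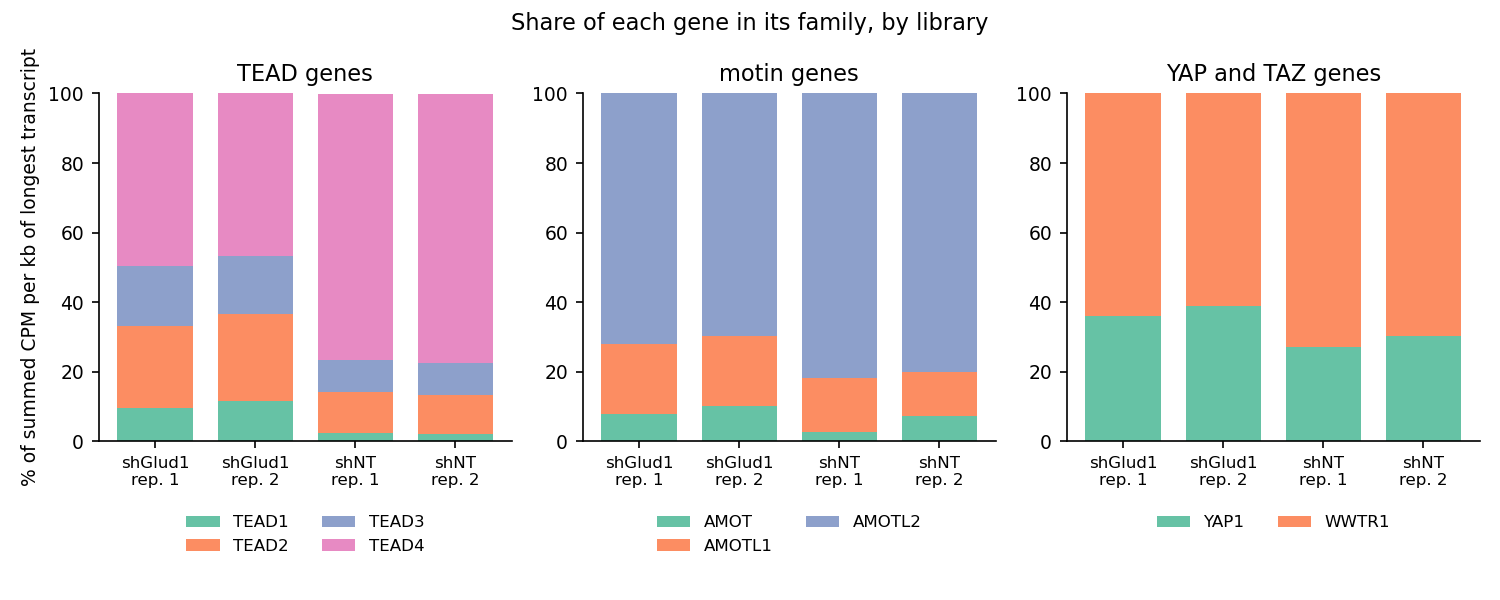
Share of each gene in the summed CPM per kilobase of longest transcript of its family, in percent, for the 2 shGlud1 libraries (left) and the 2 shNT libraries (right). TEAD4 takes 49.7% and 46.6% of the TEAD level in shGlud1 and 76.5% and 77.4% in shNT, and AMOTL2 is the most abundant motin gene in every library.

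The kinase gene LATS2 and both motin genes, whose products restrain YAP, were higher in shGlud1. LATS2 (ENSG00000150457, chromosome 13, 20973032 to 21061547) encodes a kinase that phosphorylates YAP and TAZ and is itself a known YAP target. Its counts were low, 108 and 150 in shGlud1 and 25 and 34 in shNT, which gave 5.39 and 6.50 CPM in shGlud1 and 1.83 and 2.22 CPM in shNT. The LATS2 groups were far apart relative to the spread within each, at a log2 fold change of 1.55 (SE 0.29). Its paralog LATS1 rose by 0.96 in edgeR's test (SE 0.28, adjusted p = 0.00122). LATS2 made up 58.2% and 61.5% of the summed LATS level per kilobase in shGlud1 and 54.9% and 46.7% in shNT, and with median transcript lengths its mean share was 54.4% in shGlud1 and 45.3% in shNT.

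AMOTL1 (ENSG00000166025, chromosome 11, 94706431 to 94876753) was at 21.1 and 24.4 CPM in shGlud1 and at 7.76 and 5.88 CPM in shNT, a log2 fold change of 1.74 (SE 0.19). AMOTL2 (ENSG00000114019, chromosome 3, 134355874 to 134375479), the motin gene that is also a YAP target, was at 38.4 and 42.4 CPM in shGlud1 and at 20.8 and 18.8 CPM in shNT, a log2 fold change of 1.03 (SE 0.15). In both genes every shGlud1 value exceeded every shNT value by more than the spread within a group. AMOT, the founding motin gene, had 136 and 232 counts in shGlud1 and 15 and 43 in shNT, and rose by 2.09 in edgeR's test (SE 0.27, adjusted p = 1.85e-13). AMOTL2 remained the most abundant motin gene per kilobase, with 72.2% and 69.6% of the summed level in shGlud1 and 81.9% and 80.0% in shNT. The summed motin level was 11.8 and 13.5 CPM per kb in shGlud1 and 5.61 and 5.197 in shNT.

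The 3 target genes most often used as readouts of YAP and TAZ did not move together. CTGF and CYR61, which encode secreted matricellular proteins of the CCN family, were higher in shGlud1, and ANKRD1, which encodes a muscle ankyrin repeat protein that acts in the nucleus and the sarcomere, was almost lost. CYR61 (ENSG00000142871, chromosome 1, 85580761 to 85583962) was at 222 and 227 CPM in shGlud1 and at 79.6 and 75.5 CPM in shNT. Its 2.90-fold difference (log2 1.53, SE 0.14) was many times the spread within either group. CTGF (ENSG00000118523, chromosome 6, 131948176 to 131951373) was at 29.7 and 29.6 CPM in shGlud1 and at 20.8 and 19.8 CPM in shNT. Its log2 fold change was 0.54 (SE 0.15), smaller than that of CYR61, although both groups were tight. Per kilobase, CYR61 made up 88.5% and 88.7% of the summed level of this pair in shGlud1 and 79.7% and 79.5% in shNT.

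ANKRD1 (ENSG00000148677, chromosome 10, 90912096 to 90921276) had 4 and 0 counts in the shGlud1 libraries, against 151 and 213 counts in the shNT libraries. That corresponded to 0.200 and 0 CPM in shGlud1 and to 11.1 and 13.9 CPM in shNT. Both shGlud1 libraries were close to nothing, and both shNT libraries held a clear signal. Taken over both libraries of a group, ANKRD1 in shGlud1 was at 0.739% of its shNT level, with an exact 95% interval of 0.200% to 1.91% that covers counting error only. The fitted log2 fold change was -6.97 (SE 0.41), and only 0.103% of all genes had a lower one. The SE was 1.22 with DESeq2 (log2 fold change -7.07) and 0.71 with limma-voom (-7.48). At 4 and 0 counts the SE of 0.41 is therefore no firm measure of precision. Without shGlud1 replicate 1 the group stood at 0 counts. With a floor of 3 counts in shGlud1 replicate 2, the gene was at least 96.0-fold lower in that library. This is no bound for the group, whose interval reaches up to 1.91% of the shNT level. No other gene overlapped the exons of ANKRD1 in GENCODE 29.

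The order of the 10 genes by level per kilobase depends on the transcript length used, and is given first for the longest transcript. In shGlud1 CYR61 stood first at 98.05 ± 1.42 CPM per kb, followed by CTGF at 12.7 ± 0.027, TEAD4 at 9.79 ± 1.15 and AMOTL2 at 8.94 ± 0.63. The values of TEAD4 and AMOTL2 overlapped between libraries. ANKRD1 stood last at 0.050 ± 0.071 and LATS2 next to last at 1.08 ± 0.14. In shNT CYR61 also stood first, at 33.9 ± 1.28, followed by TEAD4 at 15.6 ± 2.01, CTGF at 8.69 ± 0.28 and ANKRD1 at 6.31 ± 1.02. WWTR1 at 4.64 ± 0.20 and AMOTL2 at 4.38 ± 0.31 overlapped in shNT, and TEAD1 at 0.44 ± 0.0064 and LATS2 at 0.37 ± 0.050 stood last (SD, n = 2 for each value). With the median transcript length ANKRD1 was again last in shGlud1, but in shNT it had rank 7 of 10, below WWTR1 at 35.8, AMOTL2 at 27.8 and AMOTL1 at 7.95 CPM per kb. CYR61 stood first in both groups with either length.

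The promoters of ANKRD1 and CTGF are shown because these 2 targets differed in direction. Of the 10 genes, 7 were matched in the RefSeq promoter table for GRCh38.p14, with 9 promoters in all, and TEAD1, TEAD4 and CYR61 had no entry. The 250 bases before the RefSeq start were searched for the core TEAD letters GGAATG on both strands, marked in capitals below. The ANKRD1 window is chr10:90921088-90921337 and the CTGF window is chr6:131951373-131951622, both on the minus strand and written 5′ to 3′ in the direction of transcription.
ANKRD1: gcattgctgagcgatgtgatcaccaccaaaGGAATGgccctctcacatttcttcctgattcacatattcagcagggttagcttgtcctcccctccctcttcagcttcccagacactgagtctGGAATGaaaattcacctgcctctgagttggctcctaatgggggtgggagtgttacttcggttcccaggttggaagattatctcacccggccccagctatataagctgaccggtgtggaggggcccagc
CTGF: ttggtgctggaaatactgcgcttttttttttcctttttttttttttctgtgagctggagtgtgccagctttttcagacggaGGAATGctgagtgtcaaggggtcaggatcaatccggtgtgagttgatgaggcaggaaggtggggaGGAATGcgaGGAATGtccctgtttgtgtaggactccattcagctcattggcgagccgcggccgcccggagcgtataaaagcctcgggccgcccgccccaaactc
ANKRD1 holds the letters 2 times, starting 220 and 128 bases before the start, and CTGF 3 times, starting 169, 104 and 95 bases before it. YAP1 holds them once, and AMOTL2 once, on the other strand, in 1 of its 2 promoters. The RefSeq windows of WWTR1, LATS2 and AMOTL1 do not hold these letters. For AMOTL1 (94768106 to 94768355) and WWTR1 (149703274 to 149703523 and 149658026 to 149658275) these windows lie inside the gene positions given above. The bases before the 5′ ends of those positions were not searched, so absence there is not shown. The AMOTL2 window with the letters (134374448 to 134374697) and most of the ANKRD1 window also lie inside their genes. Among all 35116 promoters of the table, 11.9% held the letters at least 1 time, 0.940% at least 2 times and 0.0826% at least 3 times. The loose AP-1 pattern TGANTCA, where N is any base, occurred in the window of ANKRD1 alone among the 7 genes and in 6.57% of all promoters. In ANKRD1 it occurred 1 time, as TGATTCA, without overlapping the TEAD letters. The usual AP-1 letters have C or G at N, so this match falls outside them. The gene that was nearly lost and the gene that was higher thus both carry repeated TEAD letters, and a match describes the sequence only.

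The size of these differences depended on the scaling and moved with transcript length. Total counts put the median of all genes at 0.57, against 0.056 under TMM, and raised the 10 log2 fold changes by about as much, to 2.80 for TEAD1 and -0.16 for TEAD4. Across all genes with a length the log2 fold change had a Spearman correlation of 0.447 with the longest transcript length, and across the 10 genes it was 0.794, over points that share the same 4 libraries. The 6 genes longer than the median of 3374.5 nt, namely AMOTL2, WWTR1, YAP1, LATS2, TEAD1 and AMOTL1, were all higher in shGlud1. Of the 4 shorter genes, CYR61 (2290 nt) and CTGF (2339 nt) were higher and ANKRD1 (1979 nt) and TEAD4 (1690 nt) lower. With a smooth trend on length removed from each library, TEAD1 was at 1.65, AMOTL1 at 1.10, LATS2 at 1.13, AMOTL2 at 0.74 and YAP1 at 0.57. CYR61 was at 1.75 and CTGF at 0.75 on that scale, and ANKRD1 at -6.66. WWTR1 was at 0.046 and TEAD4 at -0.27, so these 2 were the most affected by the correction relative to their size.

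**Figure D3:**
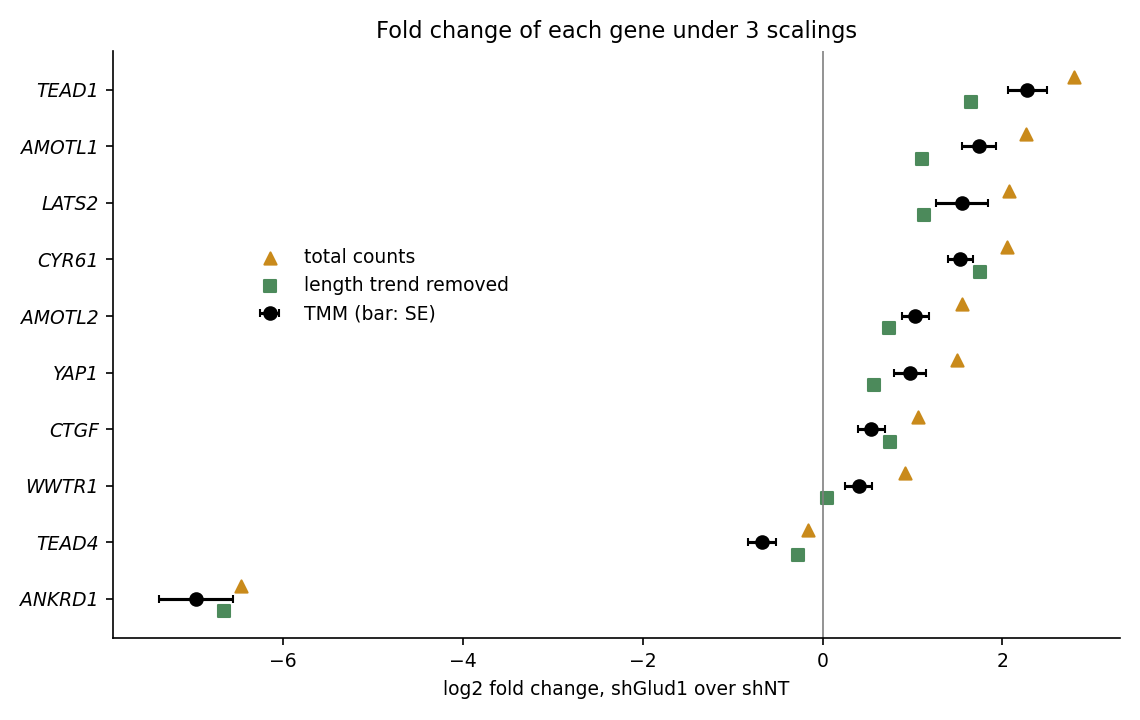
Log2 fold change, shGlud1 over shNT, of the 10 genes with TMM factors (circles, bars are SE), with total counts (triangles) and with the length trend removed (squares). ANKRD1 lies between -6.97 and -6.46 in all 3, TEAD1 between 1.65 and 2.80, and WWTR1 comes to 0.046 with the length trend removed.

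By distance between centred log2 CPM over the 4 libraries, the 5 genes most like ANKRD1 among 9829 with a mean of at least 5 CPM were RN7SK, ZFAND2A, HSPA1A, SNORD3A and FOS. Their distances ran from 1.10 to 1.71 on the log2 scale, against a median of 6.20 over all candidates. All 5 were far lower in both shGlud1 libraries, as with the immediate-early gene FOS at 0.499 and 0.997 CPM in shGlud1 and 52.5 and 45.6 CPM in shNT. RN7SK and SNORD3A are RNAs without a poly-A tail, so poly-A libraries do not measure them reliably. Whether library preparation differed between the groups was not tested. ZFAND2A, a heat-shock-induced zinc finger gene, was at 25.1 and 18.9 CPM in shGlud1 and at 933 and 772 CPM in shNT. The 5 genes most like YAP1 were CALD1, USP40, IFIT3, LONRF1 and ADNP, at distances of 0.043 to 0.055 against a median of 1.034. With 2 libraries in each group this likeness reflects the difference between groups and little else.

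The wider pathway was described with 8 lists of other genes, 151 in all without the 10, of which 140 could be tested. In shGlud1 87 of them rose and 17 fell in edgeR's test, against 31.9% and 29.1% of all genes, and their median log2 fold change was 0.68 against 0.056 for all genes. After removal of the length trend 66 rose and 20 fell, against 27.0% and 28.9% of all genes, and the median was 0.36. Under total counts 117 rose and 5 fell, against 51.9% higher and 13.7% lower among all genes. Fewer of the 140 also fell without shNT replicate 1 or without shNT replicate 2, fits that leave 1 control library.

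**Figure D4:**
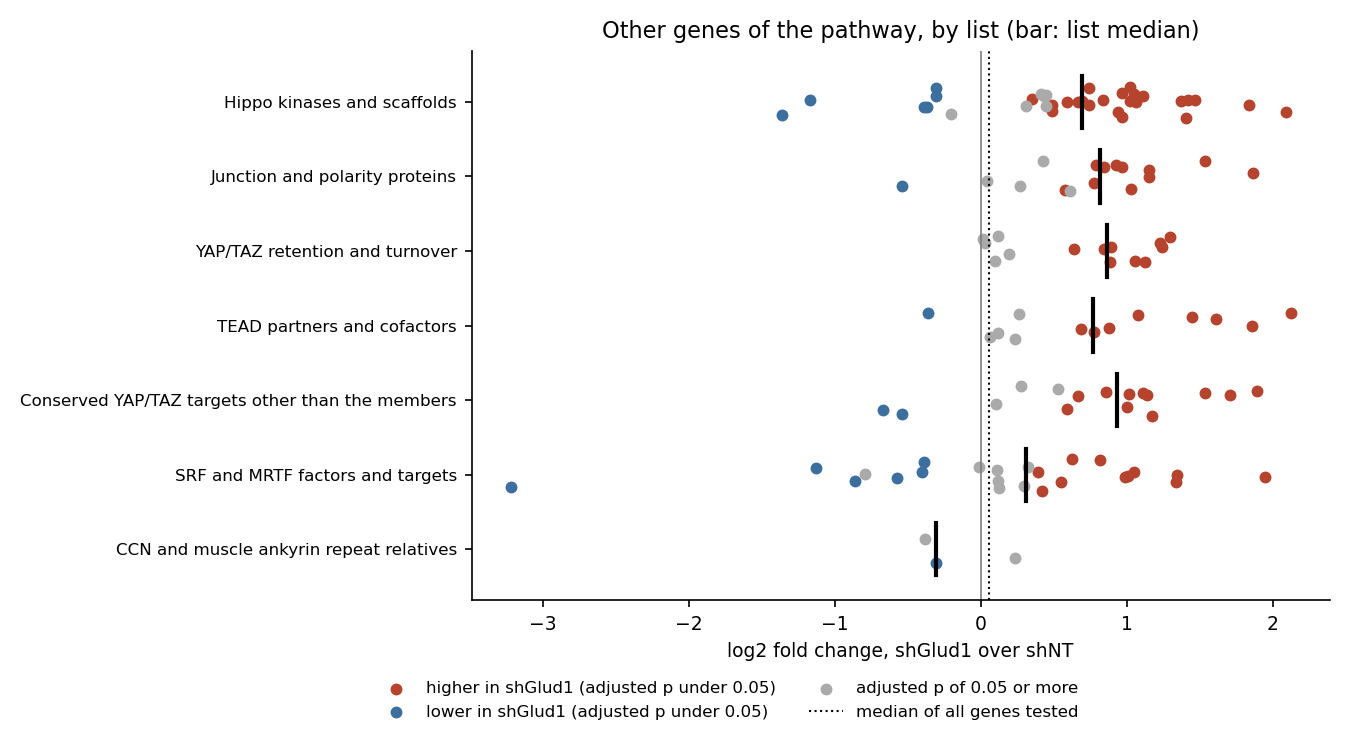
Log2 fold change, shGlud1 over shNT, of each tested gene in 7 of the 8 lists. Red points rose and blue points fell at an adjusted p under 0.05 in edgeR's test, grey points did not pass, black bars are list medians, and the dotted line is the median of all genes tested (0.056). The list of other YAP/TAZ targets has a median of 0.93 and that of SRF and MRTF genes one of 0.31.

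More of the other YAP and TAZ targets rose than fell, as in most of the other lists. The list held 17 genes known as targets in many tumour types, of which 16 were tested. Of these 11 rose and 2 fell, against 31.9% and 29.1% of all genes. The median of 0.929 lay near those of the retention and turnover list (0.865) and the junction and polarity list (0.815). MYOF, which encodes the membrane repair protein myoferlin, was at 99.3 and 110 CPM in shGlud1 and at 26.6 and 29.8 CPM in shNT (log2 fold change 1.89, SE 0.14, adjusted p = 3.41e-41, edgeR). The receptor tyrosine kinase gene AXL rose by 1.11 and the ecto-nucleotidase gene NT5E by 1.00. The 2 that fell were GADD45A, a stress gene (-0.67, SE 0.13), and IGFBP3, a carrier of insulin-like growth factors (-0.54, SE 0.13). GADD45A was no longer called with the length trend removed (-0.19, adjusted p = 0.178 in edgeR's test), and neither of these 2 was called under total counts. With the length trend removed 8 of the 16 rose and 1 fell, against 27.0% and 28.9% of all genes, at a median of 0.42.

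Genes driven by SRF and its MRTF coactivators, which respond to actin and share targets with YAP, were divided. Of 24 tested, 11 rose and 6 fell, against 31.9% and 29.1% of all genes, at a median of 0.31. Fewer of them were called without shNT replicate 1, where fewer of all genes were called as higher too. Under total counts 17 rose and 3 fell, against 51.9% and 13.7% of all genes. The smooth muscle gene TAGLN was at 2.35 and 2.17 CPM in shGlud1 and at 24.2 and 18.0 CPM in shNT, a fall of 3.22 on the log2 scale (a log2 fold change of -3.22, SE 0.22, adjusted p = 1.9e-45, edgeR). FHL2, which encodes a LIM-domain cofactor, fell by 0.87 and the tropomyosin gene TPM2 by 1.13. In contrast the vinculin gene VCL rose by 1.33, the calponin gene CNN2 by 0.99 and the caldesmon gene CALD1 by 1.01. After removal of the length trend 11 rose and 5 fell, against 27.0% and 28.9% of all genes.

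Upstream, 23 of 35 Hippo kinase and scaffold genes rose and 6 fell, against 31.9% and 29.1% of all genes. Fewer of them were called without shNT replicate 1 or without shNT replicate 2, where fewer of all genes were called as higher too. Under total counts 28 rose and 2 fell, against 51.9% and 13.7% of all genes. STK4, which encodes the Hippo kinase upstream of the LATS kinases, rose by 1.47 (SE 0.19, adjusted p = 1.53e-13, edgeR), and MAP4K4, a kinase that also acts on the LATS kinases, by 1.11. The falls with the lowest p were SIKE1 (-1.36) and MOB4 (-1.17), genes of a suppressor of IKK-epsilon and of a MOB family protein. SIKE1 was at 22.8 and 22.3 CPM in shGlud1 and at 55.5 and 60.3 CPM in shNT. With the length trend removed 12 of the 35 rose and 6 fell, against 27.0% and 28.9% of all genes, at a median of 0.24.

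Of 16 tested genes of junctions and polarity 11 rose and 1 fell, against 31.9% and 29.1% of all genes. The polarity gene PARD3 rose by 1.87 (SE 0.15), PTPN14, a phosphatase gene whose product binds YAP, by 1.54, and the beta-catenin gene CTNNB1 by 1.03. LIN7C fell by 0.54 and lost its call with DESeq2, without a low count filter, under total counts and without shGlud1 replicate 1 or shNT replicate 1. Of 14 genes for retention and turnover of YAP and TAZ 9 rose and the other 5 were not called at an adjusted p under 0.05, the risers including the 14-3-3 genes YWHAZ (1.23) and YWHAH (1.06) and the deubiquitinase gene USP9X (1.24). Under total counts all 14 of these rose, against 51.9% of all genes. With the length trend removed the junction list had 10 higher and 2 lower genes, and the retention list 9 and 2. Among all genes 27.0% were then higher and 28.9% lower.

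Of 13 tested TEAD partners and cofactors 8 rose and 1 fell, against 31.9% and 29.1% of all genes. The partner gene ZEB1 rose by 2.12, the chromatin remodelling gene ARID1A by 1.86 and the acetyltransferase gene EP300 by 1.61, and the gene that fell was VGLL4, whose product competes with YAP for TEAD (-0.36, SE 0.15, adjusted p = 0.0229, edgeR). VGLL4 lost its call without a low count filter and without shGlud1 replicate 1, shNT replicate 1 or shNT replicate 2, and was at 0.16 under total counts. After removal of the length trend 5 of the 13 rose and 3 fell, against 27.0% and 28.9% of all genes. The list median was then 0.23, against -0.0076 over all genes. Of the relatives of CTGF, CYR61 and ANKRD1 only 3 of 6 could be tested, and the CCN family gene NOV fell by 0.31 (SE 0.13, adjusted p = 0.0321, edgeR), at 47.7 and 51.0 CPM in shGlud1 and 59.9 and 62.3 CPM in shNT. NOV was at 0.21 under total counts, and it was not called with the length trend removed, without a low count filter, or without shGlud1 replicate 1, shNT replicate 1 or shNT replicate 2.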

How the data were processed

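RNA abundance was measured by poly-A RNA-seq. Per the labels' protocols, 1 µg of total RNA went into TruSeq V2 libraries, an unstranded design, with 12 PCR cycles and paired reads of 150 nt. The values the authors deposited are expected counts per gene, and 20.1% of values above 0 were not whole. Bowtie 0.12.2 and the mouse build mm8 are named per the submitters' processing notes although the rows are human Ensembl genes. What counted the reads, and on which annotation, is not given in the sources used here. Without molecular identifiers, limits from counts cover counting error only.

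After rounding of these values, genes passing filterByExpr (minimum count 10) were compared in edgeR 4.0.16 under R 4.3.3 with TMM factors, a robust quasi-likelihood fit and no block. The p-values were adjusted by Benjamini-Hochberg over all 14616 genes and called under 0.05. The SE is the absolute log2 fold change over the square root of F. The test was first tested on simulated data with known changes. It called 31.3% of the 1.5-fold, 71.6% of the 2-fold and 93.9% of the 4-fold changes, with 15 false calls among 14616 genes. A gene that was not called may therefore still differ.

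Alternatives were DESeq2 1.42.0, limma-voom (limma 3.58.1), factors by RLE or upper quartile, total counts, a replicate block, no low count filter or one of 1 CPM in 2 libraries, each library left out, and a lowess trend (span 0.3) on the longest GENCODE 29 transcript removed from each library, for the 97.6% of genes with a length. Positions are from GENCODE 29 (GRCh38) by Ensembl ID. The 10 genes, the 8 lists and the alternatives were chosen with earlier results of these data known. Of each list, up to 3 called genes higher and 3 lower by lowest p were named, except that 1 list and 1 further gene are counted in the totals and not reported here. TEAD2, TEAD3 and LATS1 were added as paralogs of the 10 genes. The planned protein comparison was not run, because no protein table was used here. Figures and tables were made in Python 3.11.15 with matplotlib 3.10.9.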

Additional observations from a re-analysis of the deposited data

How the results depend on the processing

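The 10 genes kept the sign of their log2 fold change under each of 13 alternatives, and WWTR1 came nearest to 0, at 0.046 with the length trend removed. TEAD4 ranged from -0.81 to -0.16. ANKRD1 ranged from -10.77, without shGlud1 replicate 1, where its group had 0 counts and the fitted value is no bound, to -5.91. Called as lower among the 10 were 2 genes, but 1 with the length trend removed and 1 under total counts. Called as higher were 8 genes, but 7 with DESeq2, with the length trend removed, without shNT replicate 1 and without shNT replicate 2, where 3515, 3856, 3647 and 3711 of all genes were called as higher. Over all genes, total counts gave 7592 higher and 2000 lower genes, against 4662 and 4257 with TMM factors. Of the other pathway genes, 17 were lower, 5 under total counts and 7 to 16 with a library left out. The log2 fold changes of VGLL4 (0.16) and NOV (0.21) changed sign under total counts without being called. Deviations of same-numbered libraries had a correlation of 0.041 across genes, so the numbers were not taken to pair the samples, and the replicate block gave 4745 higher and 4301 lower genes. Low counts limit the precision for LATS2 (25 and 34 in shNT), TEAD1 (51 and 56 in shNT) and ANKRD1 (4 and 0 in shGlud1).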
